A study of Mus musculus with 2 samples.

Results

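The genes described here are the axon guidance ligands and receptors of the mouse: the semaphorins of classes 3 to 7, plexins, neuropilins, ephrins, Eph receptors, SLIT proteins, ROBO receptors, netrins and UNC5 receptors. They were chosen by gene symbol alone, from the probes whose accession is paired with a symbol of these families. This gave 88 of the 39429 gene probes and 68 genes. Of these, 63 genes had a probe bright enough to be tested, among 21337 genes tested in all. Each of the 2 arrays carried RNA of ureters from wildtype NMRI mouse embryos of mixed sex, taken at stage E12.5 and cultured on transwell membranes for 18 h. The NOGGIN culture received 10 µg/ml of NOGGIN, a secreted antagonist of bone morphogenetic proteins (BMPs), and the control culture did not. The arrays are 2-colour arrays, so each carried a control and a NOGGIN sample, and the dyes were exchanged between replicate 1 and replicate 2. How many embryos or litters went into each sample is not stated in the labels, so p-values measure the spread between these samples only, which may be technical, and the number of arrays limits the precision. Whole ureters were cultured, so fewer cells of a type and less RNA per cell cannot be told apart in any of the values.

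Axon guidance proteins were named for steering growth cones, and the same proteins act in vessels and epithelial organs. Semaphorins signal through plexins, the class 3 members mostly with a neuropilin as co-receptor. Ephrins are bound to the cell surface and signal to Eph receptor tyrosine kinases on neighbouring cells. SLIT proteins are secreted and repel through ROBO receptors, and SLIT2 acting on ROBO2 is known to restrict the outgrowth of the ureteric bud in the early kidney. Netrins are secreted proteins related to laminins that attract through DCC and repel through UNC5 receptors.

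Every ratio below is the log2 of the signal labelled NOGGIN over the signal labelled control on the same array, with the direction read from the dyes in the labels. The sign is turned in the authors' deposited table, with a correlation of -0.981 on replicate 1 and -0.985 on replicate 2 over 13356 bright probes. Known BMP target genes (Id1, Id2, Id3, Id4, Smad6, Smad7, Smad9 and Bambi) were all higher in the channel labelled NOGGIN, by 0.55 to 2.73 on the log2 scale, although NOGGIN blocks BMPs. The direction is therefore not settled, and turning the sign swaps every "higher" and "lower" below without changing any size or p-value. In the authors' deposited table, 13 of the 13 axon guidance genes past the threshold had the sign opposite to the one given here on both arrays.

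Between 67.3% and 74.3% of the gene spots of a channel were well above background, no gene spot was saturated, and the arrays' log2 ratios correlated with r = 0.702 over genes, which are not independent replicates. Marker genes of ureteric epithelium (8 genes), ureteric mesenchyme (6), smooth muscle (5), endothelium (8), neural cells (10), macrophages (6) and nephron progenitors (4) were all bright enough to be tested. The 5 smooth muscle genes were all lower in the NOGGIN-labelled channel, with a summed signal of 210886 to 222423 against 461580 to 468493 in the control-labelled channels. Of the 8 endothelial genes 0 passed the threshold with limma, with 2 of them at an unadjusted p under 0.05. That unadjusted level was reached by 4953 of all 21337 genes. The summed signal of the endothelial genes was 34455 to 38150 in control and 37693 to 44071 in NOGGIN. Of the 10 neural genes 1 was higher (Stmn2, 0.70) and 1 lower (Foxd3, -0.56), with sums of 90682 to 94199 and 103134 to 118743. Of the 6 ureteric mesenchyme genes 2 were higher (Tbx18 and Tcf21), while 3 had a ratio below 0. Their summed signal was 343553 to 347677 in control and 325966 to 339071 in NOGGIN. Of the 8 epithelial genes 1 was lower (Cldn4, -0.55), while 3 had a ratio above 0. Their sums were 217898 to 237843 in control and 239705 to 243449 in NOGGIN. Of the macrophage and nephron progenitor genes 0 passed with limma (2 of each at an unadjusted p under 0.05). The part of these cell types in the results below was not tested.

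With limma on the log2 ratios of both arrays and Benjamini-Hochberg adjustment over all 21337 genes (threshold 0.05), 13 of the 63 axon guidance genes passed, 6 higher and 7 lower in the NOGGIN-labelled channel. That is 20.6% of them, beside 7.97% of all genes tested (3.95% higher, 4.03% lower) and 8.89% of the genes with a symbol. The higher genes were the netrin receptors Unc5b and Unc5c, Slit2, Sema3e, Ephb1 and Plxna2. The lower genes were Ntn1, Epha8, Sema6a, Robo1, Epha3, Plxnb3 and Efnb1. By role, 5 of the 33 ligands tested changed (2 higher, 3 lower), as did 8 of the 30 receptors (4 higher, 4 lower). The median log2 ratio of the 63 genes was -0.033 and the median size 0.177, beside medians of 0.000831 and 0.10 over all genes. On both arrays the sign was the same for 51 of the 63 genes and for 66.7% of all genes. A change of at least 1.5-fold the same way on both arrays was reached by 4 of the 63 genes, Unc5b upwards and Ntn1, Epha8 and Sema6a downwards, and by 2.9% of all genes (1.35% upwards, 1.55% downwards). The calls depend on the intensity-dependent (loess) correction: with median centring alone, limma called 0 of the 63 genes and 0 of all genes. An unadjusted p under 0.05 was then reached with limma by 22 of the 63 and by 3572 of all 21337 genes. The ratios themselves moved little under that setting: Ntn1 was at -1.25, Unc5b at 0.84, Sema6a at -0.87 and Epha8 at -1.06, and the count at 1.5-fold stayed at 4.

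**Figure D1:**
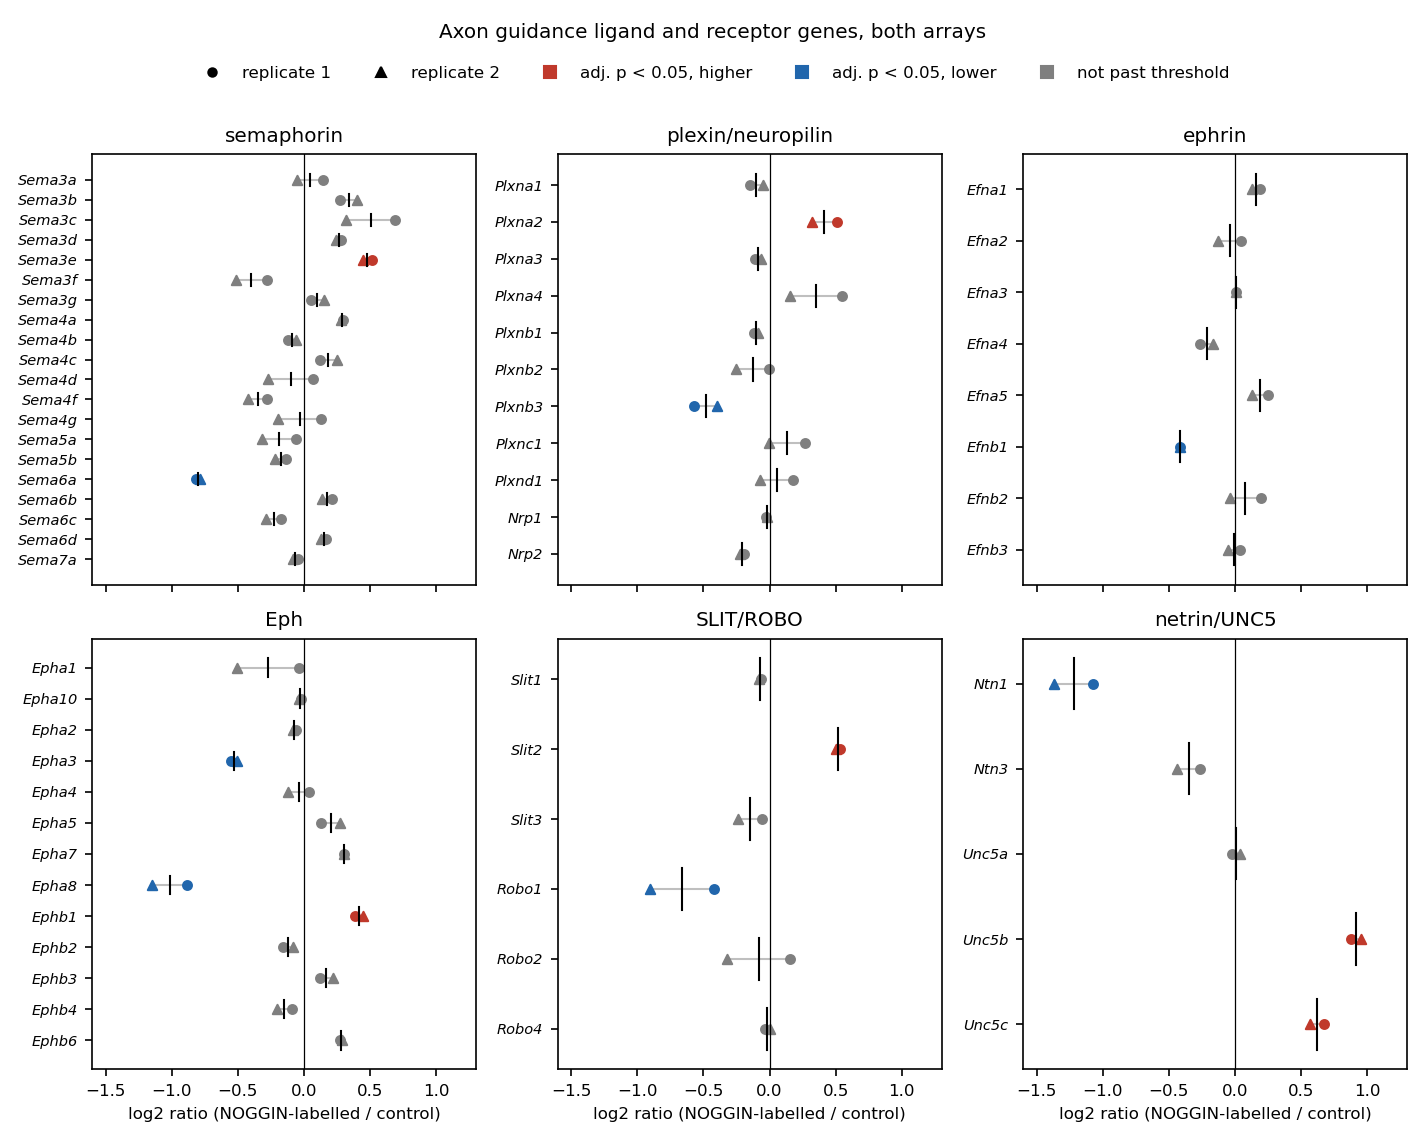
Log2 ratio, NOGGIN-labelled over control-labelled channel, of the 63 axon guidance genes tested, grouped by family. Each gene has a circle for replicate 1, a triangle for replicate 2 and a short black line at the mean. Genes in red (higher) or blue (lower) passed the adjusted p threshold, and genes in grey did not. By mean, Ntn1 lies lowest at -1.22 and Unc5b highest at 0.91.

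In the netrin system the ligand Ntn1 fell, and the receptors Unc5b and Unc5c rose. Ntn1, the secreted netrin best known as a midline attractant, had log2 signals of 10.83 and 11.06 in the control-labelled channels and 9.76 and 9.69 in the NOGGIN-labelled channels. Both control values lay above both NOGGIN values, and Ntn1 fell by 1.22 ± 0.21 on the log2 scale (SD, n = 2), a 2.33-fold change with an adjusted p of 0.00596 (limma). It was the axon guidance gene with the largest ratio. In the authors' deposited table its signed fold changes are 2.22 and 2.76. A second Ntn1 probe, not well above background on both arrays in either condition, gave -0.21 and was not used. Foxd1, a marker of renal stroma, the tissue beside the ureter, was lower as well, at -0.80 ± 0.20 (adjusted p 0.0137, limma), and its part in the Ntn1 value was not tested. Ntn3, another secreted netrin, gave -0.35 ± 0.12 with an adjusted p of 0.0731 (limma) and did not pass.

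Of the 3 UNC5 receptors tested, 2 rose. Unc5b, which is also known as a receptor of vascular endothelium, had log2 signals of 13.35 and 13.26 in control and 14.22 and 14.21 in NOGGIN. The groups did not overlap and were nearly 1 log2 unit apart on both arrays, at 0.91 ± 0.053 (SD, n = 2), a 1.88-fold rise with an adjusted p of 0.00596 (limma). Unc5c stood at 14.52 and 14.62 in control and at 15.19 on both arrays in NOGGIN, again without overlap. It rose by 0.62 ± 0.075 with an adjusted p of 0.0147 (limma). A second, separate probe of Unc5c gave 0.34, with an adjusted p of 0.0568 over all probes, so its size differs between probes. Unc5a did not pass, and its ratio was 0.0093 with a 95% interval of -0.18 to 0.20. The netrin receptors outside the UNC5 family did not pass: Dcc gave 0.29 (adjusted p 0.0915, limma) and its relative Neo1 gave -0.036 (adjusted p 0.837, limma).

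**Figure D2:**
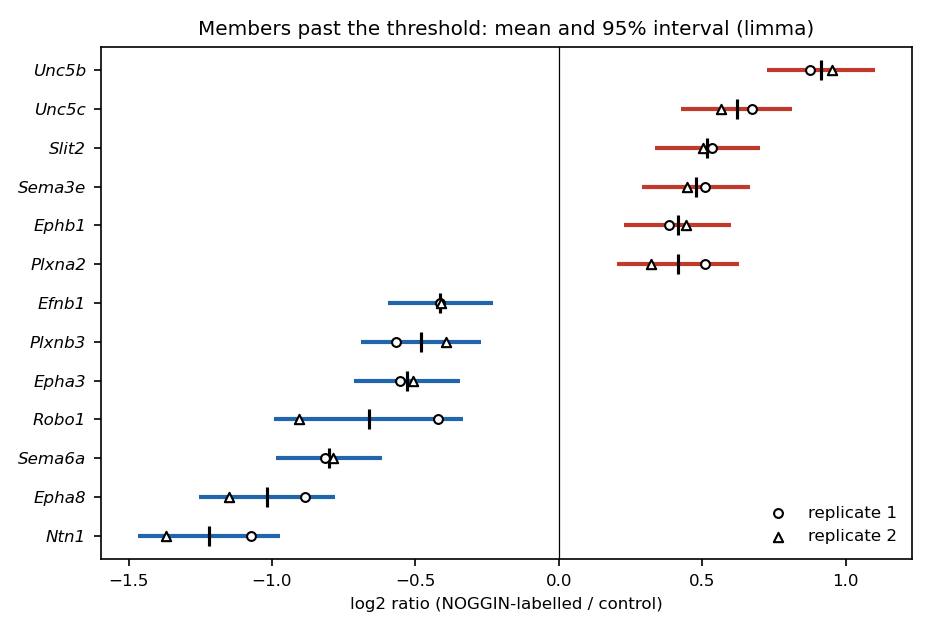
Log2 ratios of the 13 axon guidance genes past the threshold, with the value of each array, the mean and its 95% interval from limma. The arrays lie close together for Efnb1, Sema6a and Slit2 and far apart for Robo1, at -0.42 and -0.91.

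In the SLIT and ROBO families the ligand Slit2 rose while the receptor Robo1 fell. Slit2 had log2 signals of 11.54 and 11.64 in control and 12.07 and 12.15 in NOGGIN. The groups were separate and the arrays nearly equal, giving 0.52 ± 0.020 (SD, n = 2), a 1.43-fold rise with an adjusted p of 0.0203 (limma). Slit1 (-0.072, adjusted p 0.625) and Slit3 (-0.15, adjusted p 0.363) did not pass with limma. Robo1 had log2 signals of 13.43 and 13.75 in control and 13.01 and 12.84 in NOGGIN. The groups did not overlap, but the arrays differed in size, and Robo1 fell by 0.66 ± 0.34 with an adjusted p of 0.0463 (limma). Without replicate 2 its ratio is -0.42, and with the scanner software's processed signals or the authors' deposited values it does not pass. Robo2, the receptor known from ureteric bud outgrowth, had opposite signs on the arrays (0.16 and -0.32) and a 95% interval of -0.41 to 0.24. Robo4, known as an endothelial member, gave -0.017 with an adjusted p of 0.929 (limma).

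Promoters of 11 of the 13 genes past the threshold were taken from the RefSeq promoter table (assembly GRCm38.p6). Each runs from 250 bases before to 50 bases after the annotated start. Promoters of axon guidance genes on an excluded chromosome were not used. Ntn1 and Sema6a were not among the 11. Shown are the promoters of the UNC5 receptors that rose, of Slit2 and of its receptor Robo1, picked after their results were seen. These genes belong to the netrin and SLIT systems described above, and NOGGIN acts on BMP signalling, whose SMAD proteins bind short GC-rich motifs. Capitals mark matches on either strand to GGCGCC, to GGAGCC (read as GGCTCC on the other strand), to the SMAD palindrome GTCTAGAC or to the E-box CAGCTG. All are written 5′ to 3′ on the strand of the gene.
Unc5b (chr10:60831532-60831831, minus strand): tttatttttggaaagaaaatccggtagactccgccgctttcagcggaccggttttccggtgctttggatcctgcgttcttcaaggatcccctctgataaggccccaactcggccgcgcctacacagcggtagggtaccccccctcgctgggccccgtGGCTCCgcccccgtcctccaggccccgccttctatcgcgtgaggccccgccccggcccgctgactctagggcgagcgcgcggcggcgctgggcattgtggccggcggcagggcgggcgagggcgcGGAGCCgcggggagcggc
Unc5c (chr3:141465314-141465613, plus strand): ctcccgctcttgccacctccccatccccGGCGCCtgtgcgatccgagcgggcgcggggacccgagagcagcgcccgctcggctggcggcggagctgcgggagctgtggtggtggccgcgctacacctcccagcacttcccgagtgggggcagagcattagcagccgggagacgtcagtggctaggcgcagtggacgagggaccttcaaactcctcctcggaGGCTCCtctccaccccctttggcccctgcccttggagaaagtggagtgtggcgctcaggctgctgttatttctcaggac
Slit2 (chr5:47982905-47983204, plus strand): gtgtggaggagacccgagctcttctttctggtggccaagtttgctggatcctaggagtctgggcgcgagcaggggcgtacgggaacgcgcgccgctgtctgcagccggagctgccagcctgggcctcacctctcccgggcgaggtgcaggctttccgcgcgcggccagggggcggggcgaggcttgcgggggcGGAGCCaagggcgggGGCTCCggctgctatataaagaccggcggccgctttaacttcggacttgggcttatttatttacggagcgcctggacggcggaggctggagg
Robo1 (chr16:72662899-72663198, plus strand): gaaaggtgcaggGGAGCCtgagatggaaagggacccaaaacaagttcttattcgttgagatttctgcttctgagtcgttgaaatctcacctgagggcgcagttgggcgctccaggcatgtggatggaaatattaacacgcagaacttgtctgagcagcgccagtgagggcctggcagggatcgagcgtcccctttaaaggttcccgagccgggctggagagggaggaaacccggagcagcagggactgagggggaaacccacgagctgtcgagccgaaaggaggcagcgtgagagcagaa

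GGAGCC was found at positions -93 and 33 of Unc5b, counted from the annotated start, at -29 of Unc5c, at -57 and -42 of Slit2 and at -238 of Robo1, and GGCGCC at -222 of Unc5c. The promoters of Unc5b, Unc5c and Slit2 have a GC content of 69.7%, 68.3% and 68.0%, and that of Robo1 57.0%. Over the 11 promoters, GGAGCC was present in 9 (81.8%), beside 30.8% of all 32851 promoters of that length in the table and 44.8% of those of tested genes with a GC content in the same range (50.7% to 84.3%). Among promoters of the axon guidance genes that did not pass, 30 of 60 held it. Some of those genes had several promoters, while the 11 promoters belong to 11 genes. GGCGCC was in 2 of the 11 (18.2%), beside 11.9% of all promoters, 23.0% of those of tested genes in the same GC range and 14 of the 60 of axon guidance genes that did not pass (23.3%). CAGCTG was in 1 (9.09%, all promoters 16.3%) and GTCTAGAC in 0 (all promoters 0.213%). A match is only a string of letters in this window and does not show that a factor binds there.

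Among the semaphorins, 1 of the 7 class 3 genes rose and 1 of the 4 class 6 genes fell, while none of the 6 class 4 and 2 class 5 genes and not Sema7a passed with limma. Sema3e, a secreted semaphorin that binds Plexin-D1 without a neuropilin, had log2 signals of 8.41 and 8.39 in control and 8.92 and 8.84 in NOGGIN. The groups were separate, at 0.48 ± 0.046 (SD, n = 2) with an adjusted p of 0.0258 (limma). Its receptor gene Plxnd1 had opposite signs on the arrays, with a mean of 0.053 and a 95% interval of -0.18 to 0.28. The ratio was above 0 for 6 of the 7 class 3 genes, with a median of 0.26. Sema3c, a secreted semaphorin known from the heart outflow tract, gave 0.50 ± 0.26 with an adjusted p of 0.0595 and Sema3b gave 0.34 with 0.0703, so neither passed with limma. Sema3f was the class 3 gene below 0, at -0.40 with an adjusted p of 0.0637 (limma).

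Sema6a, a transmembrane semaphorin that binds Plexin-A2 and Plexin-A4, had log2 signals of 14.25 and 14.43 in control and 13.43 and 13.64 in NOGGIN. Both arrays showed the same step without overlap, and Sema6a fell by 0.80 ± 0.020 (SD, n = 2), a 1.74-fold change with an adjusted p of 0.0074 (limma). The other class 6 genes did not pass, with ratios of 0.17 for Sema6b, -0.23 for Sema6c and 0.15 for Sema6d. In class 4, whose members are also membrane bound, Sema4c gave 0.18 (adjusted p 0.243, limma). The class 4 ratios ran from -0.35 (Sema4f, adjusted p 0.0648) to 0.28 (Sema4a, adjusted p 0.0901) and none passed with limma, although both of these had an unadjusted p under 0.05 (0.00615 and 0.0104). The class 5 genes Sema5a and Sema5b, which carry thrombospondin repeats, gave -0.19 and -0.18.

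Of the 9 plexins, the receptors of the semaphorins, 1 rose and 1 fell. Plxna2, a receptor of Sema6a, had log2 signals of 13.58 and 13.63 in control and 14.09 and 13.96 in NOGGIN. It was higher in both NOGGIN channels, by 0.41 ± 0.13 (SD, n = 2) with an adjusted p of 0.0490 (limma), the closest to the threshold of the genes that passed. It does not pass without the offset of the background correction, with the processed signals or with the authors' deposited values. Plxna4, the other receptor of Sema6a, had 0.54 and 0.15 on the arrays and an adjusted p of 0.149 (limma). Plxnb3, known as a receptor of Sema5a, had a dim probe, with log2 signals of 7.91 and 7.68 in control and 7.34 and 7.29 in NOGGIN. The groups did not overlap, and Plxnb3 fell by 0.48 ± 0.12 with an adjusted p of 0.0325 (limma). From the authors' deposited table, with its sign turned to the labels, its ratio is -0.90. The bright plexin genes Plxnb2 (-0.13) and Plxnc1 (0.13) did not pass, and neither did the co-receptor genes Nrp1 (-0.022, 95% interval -0.21 to 0.16) and Nrp2 (-0.21, adjusted p 0.169, limma).

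**Figure D3:**
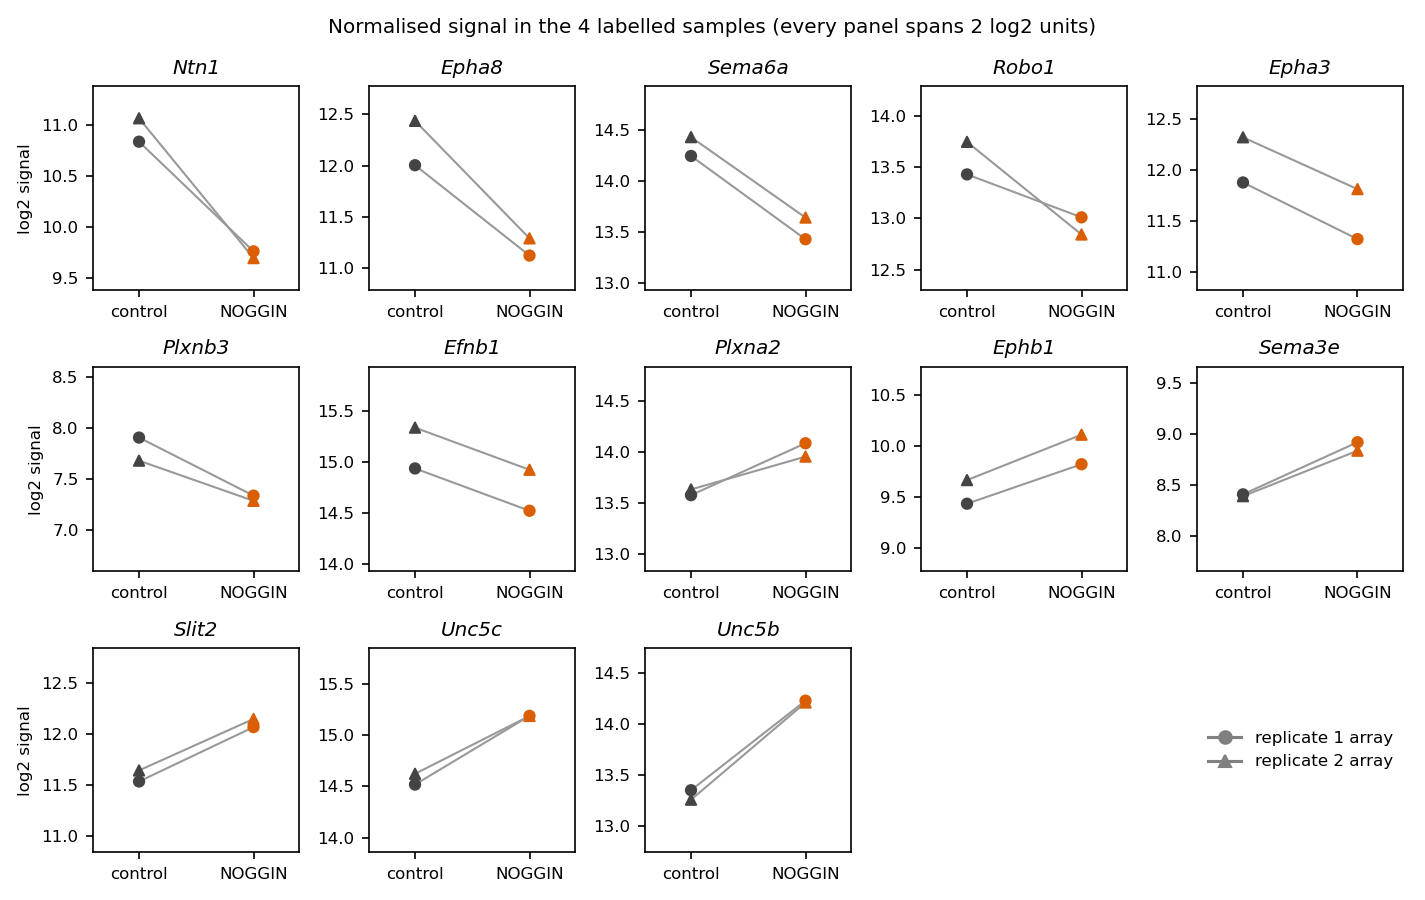
Log2 signal of the 13 axon guidance genes past the threshold in the 2 control-labelled and 2 NOGGIN-labelled channels, 1 panel per gene, with lines joining the channels of an array. Each panel spans 2 log2 units around its own gene. In all 13 the control and NOGGIN values do not overlap, which also holds for 51.0% of all genes tested.

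The ephrin and Eph genes that changed were 1 ephrin and 3 receptors. Efnb1, a transmembrane ephrin that binds EphB receptors, had log2 signals of 14.94 and 15.34 in control and 14.53 and 14.93 in NOGGIN. The step was nearly equal on both arrays, although the control value of replicate 1 lay only just above the NOGGIN value of replicate 2. Efnb1 fell by 0.41 ± 0.0017 (SD, n = 2) with an adjusted p of 0.0351 (limma), and it does not pass with the processed signals or the authors' deposited values. Efnb2 (0.079) and Efnb3 (-0.010) did not pass. None of the 5 ephrin-A genes, whose products are held by a lipid anchor, passed with limma, and those with the brightest probes gave -0.21 (Efna4, unadjusted p 0.0339, the lowest of the family), 0.19 (Efna5) and 0.16 (Efna1).

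Ephb1, a receptor of ephrin-B ligands, had log2 signals of 9.43 and 9.66 in control and 9.82 and 10.11 in NOGGIN. All NOGGIN values lay above the control values, by 0.41 ± 0.042 (SD, n = 2) with an adjusted p of 0.0363 (limma). The other 4 EphB genes did not pass; of those, Ephb3 gave 0.17, Ephb4 -0.15 and Ephb6, whose kinase domain is inactive, 0.28 (adjusted p 0.0934, limma).

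Of the 8 EphA receptors tested, 2 fell and none rose. Epha8 had log2 signals of 12 and 12.44 in control and 11.12 and 11.29 in NOGGIN. It was lower in both NOGGIN channels, by about 1 log2 unit, and fell by 1.02 ± 0.19 (SD, n = 2), a 2.02-fold change with an adjusted p of 0.00767 (limma). Epha3, a receptor of ephrin-A ligands, had log2 signals of 11.88 and 12.32 in control and 11.32 and 11.81 in NOGGIN. Its groups were separate too, and it fell by 0.53 ± 0.033 with an adjusted p of 0.0194 (limma). Epha7 gave nearly the same value on both arrays, 0.30 ± 0.0027, with an adjusted p of 0.0774 (limma), and did not pass. Epha4 gave -0.042. For Epha5 the probes disagreed: the brighter one gave 0.20 with an adjusted p of 0.218, and the other 0.65 ± 0.15 with an adjusted p of 0.0153 over all probes (limma), so the gene counts as not past.

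**Figure D4:**
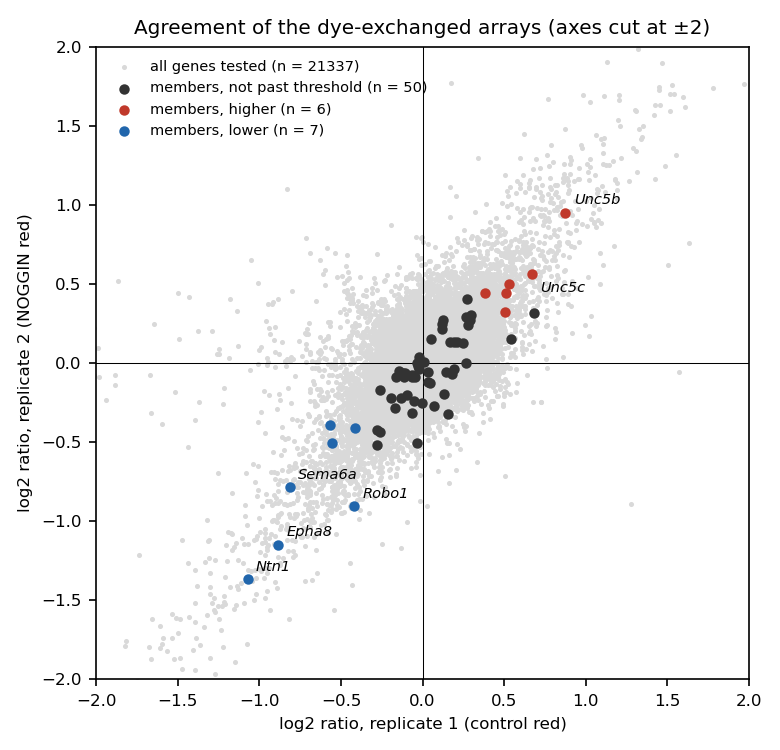
Log2 ratio on replicate 2 against that on replicate 1 for all 21337 genes (grey) and the 63 axon guidance genes (coloured by call), with axes cut at 2, which leaves 34 genes outside. The genes past the threshold lie near the diagonal, with Robo1 farthest from it, and 51 of the 63 have the same sign on both arrays.

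The control-labelled and NOGGIN-labelled channels did not overlap for 13 of the 13 genes past the threshold and for 29 of the 50 others, beside 51.0% of all genes tested. The ratios of these 50 genes lay between -0.40 and 0.50, and their 95% intervals reached no further than -0.62 and 0.78. Changes of more than 1.72-fold thus lie outside every interval of the probe that stood for a gene. Other probes are not covered by this bound, such as the second Epha5 probe at 0.65. An unadjusted p under 0.05 was reached with limma by 26 of the 63 genes and by 4953 of all 21337 genes. Just inside the adjusted threshold were Plxna2 (0.0490) and Robo1 (0.0463), and just outside it Sema3c (0.0595) and Sema3f (0.0637), all from limma. The probes of Ntn4, Ntn5, Unc5d, Robo3 and Epha6 were not well above background on both arrays in either condition, and these genes were not tested. Sema3g passed the brightness filter only in part of the channels, with a ratio of 0.10.

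A list of 54 further genes of the pathway, covering other ligands, co-receptors and the adaptors that carry the signal inside the cell, had 51 genes tested. Of these 4 changed, 2 higher and 2 lower, which is 7.84% beside 7.97% of all genes. Ntng1, a membrane-anchored netrin relative, rose by 0.66 ± 0.060 (SD, n = 2, adjusted p 0.0116, limma). Flrt2, a membrane protein that binds UNC5 receptors, rose by 0.61 ± 0.15 (adjusted p 0.0206, limma), and by 0.38 when its probes were averaged, so its size differs between probes. Draxin, a secreted repellent that binds DCC and netrin-1, fell by 0.41 ± 0.089 (adjusted p 0.0412, limma). From the authors' deposited table, with its sign turned to the labels, the Draxin ratio is -0.70. Draxin does not pass with the channels unpaired. Ablim1, an actin-binding protein, fell by 0.37 ± 0.032 (adjusted p 0.0463, limma), and does not pass without the offset of the background correction, with the processed signals, with the authors' deposited values or with the channels unpaired.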

How the data were processed

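On each 2-colour Agilent array a control sample and a NOGGIN sample were hybridised together, from 200 ng of total RNA each, amplified and labelled with exchanged dyes per the labels' protocols. The scanner files deposited by the authors give the intensity of every spot on a linear scale, and the submitters' processing notes name Agilent Feature Extraction 10.7.3.1. Their log10 ratio column, the software's own value per the file headers, was not used. The authors' deposited table gives a signed fold change per probe and array, treated here as a score; no source used here says how it was normalised. Per the file headers, the arrays share 1 slide and 1 scan.

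Background was corrected with normexp (offset 50), and each array was normalised by loess, with control, filler and outlier spots (3.69% of spots on each array) at weight 0. Probes were averaged over their spots and kept if more than 0.5 of the spots were well above background on both arrays in at least 1 condition. The brightest kept probe stood for a gene. Symbols came from accessions in a RefSeq table, found for 28328 of 39429 probes. The test was limma 3.58.1 (lmFit, then eBayes) of the log2 ratio against 0 (two-sided, Benjamini-Hochberg over 21337 genes), with 1 residual and 4.12 prior degrees of freedom, and the script was tested on simulated data. Log2 signals per channel came from loess and Aquantile normalisation. Each array carries both conditions, so the array is a block by design; same-numbered channels deviated together over genes (r = 0.355).

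Named were all members past the threshold or changed 1.5-fold on both arrays, up to 3 further members of each family with the highest mean signal, and up to 8 other pathway genes past the threshold. Dcc, Neo1 and the remaining members with values (Sema3b, Sema3f, Sema3g, Sema4a, Sema4f, Sema5b, Sema6b, Sema6c, Sema6d and Plxna4) were added after their values were seen. The members and gene lists were chosen with earlier results of these data known. The alternatives covered background correction, normalisation, filter, probe choice, moderation, pairing and each array left out.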

Additional observations from a re-analysis of the deposited data

How the results depend on the processing

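Of the 13 axon guidance genes past the threshold, 7 (Epha8, Ntn1, Sema3e, Sema6a, Slit2, Unc5b and Unc5c) passed under every alternative that gives a test except median centring without loess, which left 0 with limma (22 at an unadjusted p under 0.05). Their ratios stayed close under it (13 of 13 with the same sign, Ntn1 -1.25, Unc5b 0.84), and 4 axon guidance genes still reached 1.5-fold. That setting also left 0 of all genes (3572 at an unadjusted p under 0.05) and 0 of the other pathway genes. When the channels were treated as unpaired, with no replicate block, 7 axon guidance genes, 2 other pathway genes and 1174 of all genes passed, and Efnb1, Epha3, Ephb1, Plxna2, Plxnb3 and Robo1 were lost. The remaining alternatives gave 10 to 17 axon guidance genes, and 6.24% to 9.17% of all genes tested in them. Gained were Sema3c without the brightness filter, Epha5 and Sema3c with probes averaged, and Epha7, Ntn3, Sema3c and Sema3f with eBayes trend and robust. No named gene past the threshold changed sign. With replicate 1 or 2 left out there is no test, and 5 and 6 axon guidance genes reached 1.5-fold, beside 4 with both. Of all 21337 genes, 1087 and 948 reached it, beside 618 with both. The causes were not tested. The probe of Plxnb3 was dim, and its ratio lay between -0.90 and -0.47 over the alternatives that use both arrays. The part of dimness and of the background correction in that range was not tested.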
